A study of Mus musculus with 6 samples.

Results

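The bromodomain is a small protein fold that binds acetylated lysine, mostly on histone tails, and most of the proteins that carry it belong to complexes that write, read or remodel chromatin. Described here are 30 mouse genes for bromodomain proteins outside the SWI/SNF remodeling complex. The genes were chosen by name, with earlier results of these data known, and each matched 1 row among the 35275 gene IDs of the read count table. They are the BET genes Brd2 and Brd3, the histone acetyltransferases and their scaffolds, the partners of the ISWI remodeling motors, Taf1, 2 histone methyltransferases, the AAA ATPases, and the TRIM, ZMYND and WD repeat families. The compound of the study, iBRD9, is an inhibitor made to bind the bromodomain of BRD9, a SWI/SNF subunit that is not among the 30.

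RNA-seq counts came from Melb-a cells, an immortal line of melanoblasts (pigment cell precursors) of C57BL/6J mouse skin. In all groups the cells were in a differentiation medium with 10% serum, 2 nM of the melanocortin receptor agonist NDP-α-MSH and 200 nM of the phorbol ester PMA. For 48 h this medium also held the solvent DMSO (3 libraries) or 10 µM iBRD9 (3 libraries), and the series text calls the samples of each treatment independent. As a model this is 1 cell line, 1 dose and 1 time, without an inactive compound and without cells left undifferentiated.

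The libraries held 22846391 to 29680952 counts. DMSO replicate 1 was the odd library of its group: the chi-square per degree of freedom against replicates 2 and 3 was 29.2 and 37.5, against 3.06 between those 2. Among the iBRD9 libraries replicate 1 differed more from replicates 2 and 3 (6.33 each) than those did from each other (1.93). Mitochondrial transcripts took 3.42% to 3.71% of counts with DMSO and 2.57% to 3.15% with iBRD9, with replicate 1 the highest in each group. The 7 defining melanocyte markers summed to 15315 to 17573 CPM with DMSO and 14732 to 16227 CPM with iBRD9, but the single markers moved apart. Tyr fell from 537 ± 14.5 to 87.8 ± 3.72 CPM (SD, n = 3; log2 fold change -2.61, adjusted p = 1.44e-07 by edgeR), and Sox10 (-0.92), Tyrp1 (-0.66) and Mlana (-0.62) fell as well, while Dct rose (0.31) and Mitf (-0.10) and Pmel (0.20) did not pass. The keratinocyte genes Krt1 and Krt5 and the leukocyte genes Ptprc and Cd3e had no count in any library. The 6 fibroblast markers summed to 75.3 to 99.7 CPM with DMSO and 131 to 145 CPM with iBRD9. Most of that sum was Dcn, which rose from 51.2 ± 7.38 to 120.5 ± 7.09 CPM. Col1a1 rose from 0.679 ± 0.0336 to 3.52 ± 0.877 CPM, Col1a2 fell from 29.6 ± 6.02 to 7.64 ± 0.699 CPM, Lum and Pdgfra did not pass, and Col3a1 was too low for the test. The 6 keratinocyte markers summed to 3.50 to 4.21 CPM with DMSO and 3.64 to 4.35 CPM with iBRD9, the 5 leukocyte markers to 0.211 to 0.521 and 1.65 to 2.16, and the 4 endothelial markers to 1.46 to 1.60 and 4.42 to 6.16. The part of these shifts, and of the mitochondrial one, in the results below was not tested.

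More bromodomain genes were higher than lower with iBRD9, and the changes of the 28 genes with enough counts for the test were all under 2-fold. Of these 28, 14 rose, 3 fell and 11 did not pass (edgeR quasi-likelihood test, adjusted p under 0.05 over all tested genes). Of all 13602 tested genes 60.7% were called, so 17 of 28 is the share that genes in general had. By direction, 29.8% of all tested genes were higher and 30.9% lower. The median log2 fold change of the 28 genes was 0.16, beside 0.0071 over all tested genes, and their median absolute change was 0.22 beside 0.39. At an adjusted p under 0.01, 9 of the 28 were higher and 1 lower, where 44.6% of all tested genes were called. At least 2-fold changes were called in 14.9% of all tested genes and in 0 of the 28, whose log2 fold changes ran from -0.38 (Atad2b) to 0.73 (Brd2). In 19 of the 28 the CPM ranges of DMSO and iBRD9 were separate, against 68.0% of all tested genes. Without DMSO replicate 1 the counts were 14 higher and 6 lower of 29 tested, with Trim66 among the lower. In that fit 74% of all tested genes were called. Without DMSO replicate 2 the counts were 10 higher and 1 lower, where 49.4% of all tested genes were called. With library size alone as the scaling, 18 were higher and 1 lower. That scaling moved the median of all tested genes from 0.0071 to 0.11, and 4999 of them were higher and 3385 lower.

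**Figure D1:**
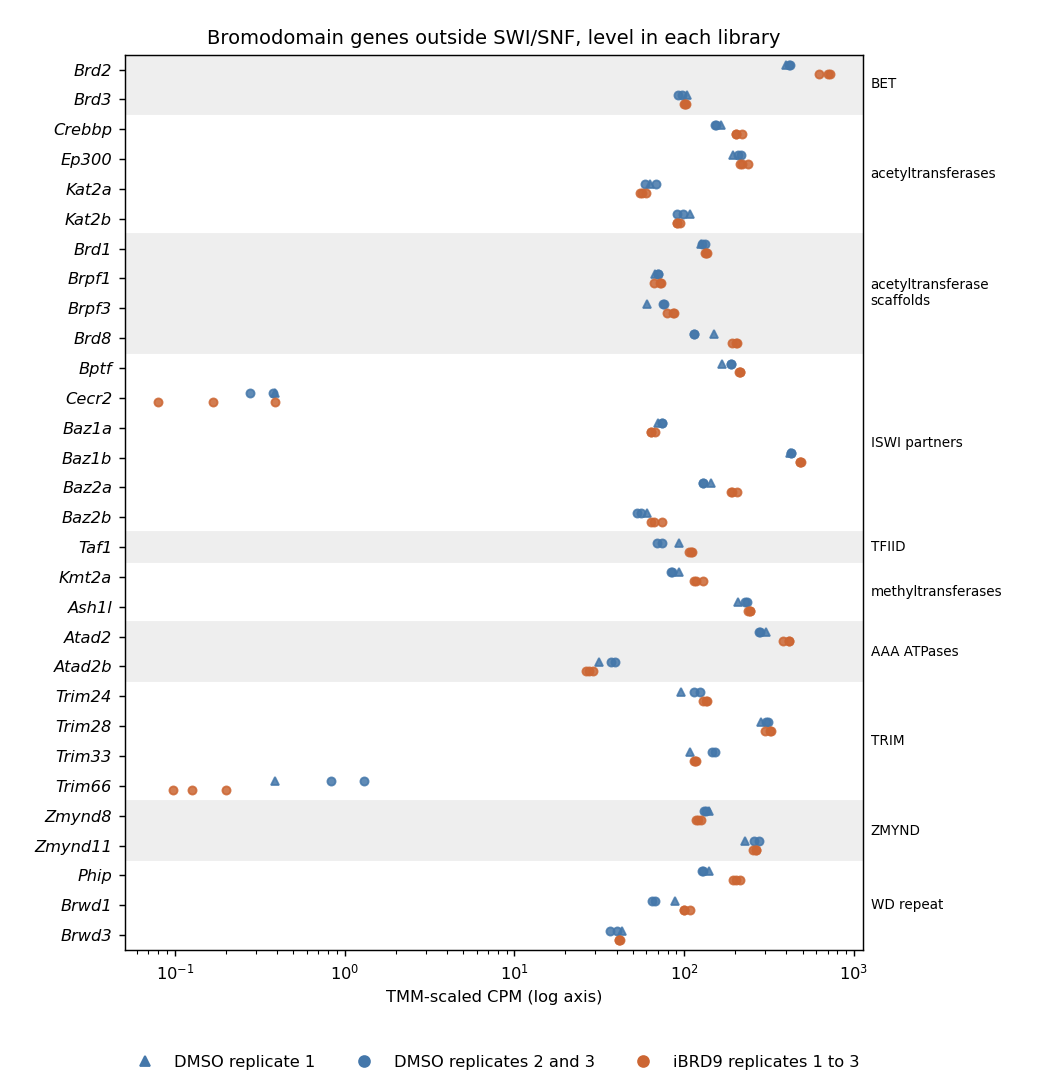
Level of each of the 30 genes in each of the 6 libraries, in CPM with TMM scaling, on a log axis; triangles are DMSO replicate 1 and rows are grouped by protein family. Cecr2 and Trim66 lie near 1 CPM or below it, and Brd2 is between 397 and 419 CPM with DMSO and between 626 and 719.8 CPM with iBRD9.

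Summed over the 30 genes, the level was 4155, 4199.8 and 4226 CPM in DMSO replicates 1 to 3 and 5043, 5069 and 5126 CPM in iBRD9 replicates 1 to 3. Every iBRD9 library was therefore above every DMSO library, and the ratio of the means was 1.21. Without Brd2 the ratio was 1.16. In bulk RNA a change in the level per cell and a change in which cells are present cannot be told apart.

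The promoters of several of the genes are given here for the 3 that rose together with large values and were matched in the promoter table (Brd2, Phip and Baz2a), beside Brd3, the BET gene that did not pass, and Atad2b, which had the lowest log2 fold change of the 28 tested genes. Each is the 250 bases before an annotated start, read 5′ to 3′ on the gene's strand from RefSeq (build GRCm38.p6, an older build than that of the counts). Capitals mark matches to 7 short motifs on either strand.
Brd2, chr17:34122608-34122857, minus strand: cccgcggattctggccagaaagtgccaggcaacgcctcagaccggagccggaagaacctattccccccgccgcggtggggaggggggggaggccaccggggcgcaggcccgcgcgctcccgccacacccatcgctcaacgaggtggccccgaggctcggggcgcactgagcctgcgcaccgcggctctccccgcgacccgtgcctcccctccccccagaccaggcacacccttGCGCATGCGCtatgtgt
Phip, chr9:82975490-82975739, minus strand: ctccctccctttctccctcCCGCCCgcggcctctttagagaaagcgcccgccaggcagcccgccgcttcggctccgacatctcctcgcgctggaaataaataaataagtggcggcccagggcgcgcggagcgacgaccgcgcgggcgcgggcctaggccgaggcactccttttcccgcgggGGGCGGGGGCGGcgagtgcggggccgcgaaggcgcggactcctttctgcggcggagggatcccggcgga
Baz2a, chr10:128092533-128092782, plus strand: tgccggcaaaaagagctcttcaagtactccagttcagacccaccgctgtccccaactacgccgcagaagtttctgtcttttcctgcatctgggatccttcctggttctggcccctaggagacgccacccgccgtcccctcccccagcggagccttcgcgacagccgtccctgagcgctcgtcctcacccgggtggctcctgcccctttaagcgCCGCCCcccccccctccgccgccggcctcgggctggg
Brd3, chr2:27475399-27475648, minus strand: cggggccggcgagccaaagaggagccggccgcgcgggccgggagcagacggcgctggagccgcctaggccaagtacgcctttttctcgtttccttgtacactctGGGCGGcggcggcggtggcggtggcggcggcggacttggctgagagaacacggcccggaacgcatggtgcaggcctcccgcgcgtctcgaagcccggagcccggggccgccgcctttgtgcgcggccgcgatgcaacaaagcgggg
Atad2b, chr12:4917103-4917352, plus strand: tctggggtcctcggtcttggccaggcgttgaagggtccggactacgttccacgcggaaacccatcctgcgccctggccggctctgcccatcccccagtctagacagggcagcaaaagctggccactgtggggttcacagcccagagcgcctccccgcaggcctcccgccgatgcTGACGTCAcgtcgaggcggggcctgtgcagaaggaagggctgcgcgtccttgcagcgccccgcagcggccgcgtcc
Brd2 has 3 annotated starts, and the one shown is the farthest upstream. The capitals are a palindromic NRF1 motif in Brd2, GC boxes (GGGCGG) in Phip, Baz2a and Brd3, and a cAMP response element (TGACGTCA) in Atad2b.

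In the RefSeq promoter table used here 24 of the 30 genes were matched, with 35 windows in all. A GC box was found in 18 of the 24 genes and in 19 of the 35 windows, while 32.7% of all 32851 windows of that length hold one. The CCAAT box was in 8 of the 35 windows (33.9% of all windows), the E-box CACGTG in 2 (6.02%), the motif CATGTG in 1 (12.3%), the cAMP response element in 2 (1.55%), the ETS motif CCGGAAGT in 0 (2.88%) and the NRF1 motif in 1 (0.782%). The median GC content was 63.6% over the 35 windows and 52.4% over all. Of the 5 genes shown, Brd2, Phip, Baz2a and Brd3 hold a GC box in at least 1 window and Atad2b holds none. Whether motifs and calls go together was not tested.

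BET proteins carry a pair of bromodomains and bring the elongation kinase P-TEFb to acetylated promoters. Brd2 (ENSMUSG00000024335) was at 397, 419 and 416 CPM in DMSO replicates 1 to 3 and at 626, 703 and 719.8 CPM in iBRD9 replicates 1 to 3. All iBRD9 libraries were above all DMSO libraries, and the log2 fold change was 0.73 (SE 0.068, adjusted p = 5.97e-05), the largest of the 28. Brd3 (ENSMUSG00000026918) was at 104, 97.1 and 91.4 CPM with DMSO and at 102, 101 and 99.6 CPM with iBRD9. The Brd3 ranges overlapped, and its log2 fold change of 0.051 did not pass (95% interval -0.092 to 0.19, adjusted p = 0.503). Leaving out DMSO replicate 1 gave 0.089, and leaving out DMSO replicate 3 gave 0.00051.

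Among the acetyltransferases with a bromodomain, Crebbp rose and the other 3 did not pass. CREBBP and EP300 are close relatives that serve as coactivators of many transcription factors, among them the cAMP-regulated factor CREB. Crebbp (ENSMUSG00000022521) was at 165, 152 and 154 CPM with DMSO and at 219.5, 201 and 202 CPM with iBRD9, without overlap (0.40, SE 0.061, adjusted p = 0.000706). Ep300 (ENSMUSG00000055024) was at 194, 208 and 215 CPM with DMSO and at 238, 212 and 219 CPM with iBRD9. These ranges overlapped and the value of 0.12 did not pass (95% interval -0.033 to 0.27, adjusted p = 0.151). Leaving out the first replicate gave 0.070 for DMSO and 0.067 for iBRD9.

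Kat2a (GCN5) and Kat2b (PCAF) are the catalytic subunits of the SAGA and ATAC complexes, where 1 or the other is present. Kat2a stood at 63.5 ± 4.58 CPM with DMSO and 56.8 ± 2.37 CPM with iBRD9 (SD, n = 3), with a fitted value of -0.16 (95% interval -0.32 to 0.0055, adjusted p = 0.0850). Kat2a passed when DMSO replicate 1 (-0.17, adjusted p = 0.0106) or DMSO replicate 3 (-0.21, adjusted p = 0.0442) was left out, and its alternatives spanned 0.0106 to 0.541. Kat2b stood at 99.4 ± 9.13 and 92.3 ± 2.14 CPM (-0.11, 95% interval -0.28 to 0.064, adjusted p = 0.240). Leaving out DMSO replicate 1 gave -0.045, and leaving out DMSO replicate 3 gave -0.18.

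The scaffolds of other acetyltransferase complexes rose or did not pass. BRD8 is a subunit of the NuA4/TIP60 complex. Brd8 (ENSMUSG00000003778) was at 150 CPM in DMSO replicate 1, at 114 and 115 CPM in DMSO replicates 2 and 3, and at 192, 204 and 201 CPM with iBRD9. DMSO replicate 1 lay between the other DMSO libraries and iBRD9, and the groups did not overlap (0.65, SE 0.105, adjusted p = 0.000939). BRD1, BRPF1 and BRPF3 hold together complexes of the acetyltransferases KAT6A, KAT6B and KAT7. Brpf3 rose from 70.7 ± 8.50 to 84.4 ± 4.15 CPM (0.26, adjusted p = 0.0399). That call was lost on leaving out DMSO replicate 2 (adjusted p = 0.0535), iBRD9 replicate 1 (0.136), iBRD9 replicate 2 (0.117) or iBRD9 replicate 3 (0.0610), and the value was 0.15 without DMSO replicate 1, where it passed; over all alternatives the adjusted p ran from 0.00525 to 0.136. Brd1 (129 ± 3.64 and 135 ± 2.08 CPM, 0.067, 95% interval -0.052 to 0.19, adjusted p = 0.287) and Brpf1 (69.2 ± 1.29 and 70.4 ± 3.22 CPM, 0.026, 95% interval -0.11 to 0.16, adjusted p = 0.721) did not pass. Leaving out DMSO replicate 1 gave 0.042 for Brd1 and 0.0027 for Brpf1. Leaving out iBRD9 replicates 1, 2 and 3 gave 0.0099, 0.062 and 4.57e-05 for Brpf1.

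All 5 tested partners of ISWI motors were called, 4 higher and 1 lower, where 60.7% of all tested genes were called; of these calls only that of Baz2a held without each 1 of the 6 libraries. These large proteins pair with the ATPases SMARCA5 and SMARCA1 and set where nucleosomes are moved. Of these motor genes, Smarca5 was at 285 ± 13.5 and 317 ± 12.5 CPM and did not pass (0.15, adjusted p = 0.0543). Smarca1 had 0 counts in every DMSO library and 0, 1 and 3 counts in iBRD9 replicates 1 to 3, too low for the test. Baz2a, whose protein (TIP5) directs silencing of ribosomal RNA genes, was at 144, 129 and 129 CPM with DMSO and at 206, 189 and 192 CPM with iBRD9. The groups did not overlap, and Baz2a (ENSMUSG00000040054) had the largest change of the family (0.55, SE 0.067, adjusted p = 0.000235). Its relative Baz2b rose from 56.4 ± 3.80 to 68.2 ± 5.41 CPM (0.28, adjusted p = 0.0161), a call lost without DMSO replicate 2 (adjusted p = 0.0594), DMSO replicate 3 (0.0584) or iBRD9 replicate 1 (0.0699), where its alternatives spanned 4.68e-05 to 0.0699.

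Bptf, the largest subunit of the NURF remodeler, rose from 182 ± 12.6 to 212 ± 1.74 CPM (0.22, adjusted p = 0.0148). Its call was lost without iBRD9 replicate 2 (adjusted p = 0.0590) or 3 (0.0591), where its alternatives spanned 0.000958 to 0.0591. Baz1b, of the WICH complex, rose from 425 ± 3.99 to 485 ± 3.98 CPM (0.19, adjusted p = 0.0107) and lost its call without DMSO replicate 2 (adjusted p = 0.0539) or iBRD9 replicate 3 (0.0574), where its alternatives spanned 0.000653 to 0.0574. Baz1a, of the ACF and CHRAC complexes, was at 70.0, 74.3 and 74.6 CPM with DMSO and at 64.0, 67.6 and 64.2 CPM with iBRD9 (-0.16, adjusted p = 0.0441). Its call was lost without any 1 library other than DMSO replicate 1: the adjusted p was 0.127 and 0.111 without DMSO replicates 2 and 3, and 0.127, 0.0724 and 0.139 without iBRD9 replicates 1, 2 and 3. With library size alone Baz1a had a value of -0.054 (adjusted p = 0.413, where its alternatives spanned 0.000800 to 0.413).

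Cecr2, of the CERF remodeler, was at the floor, with 9, 7 and 9 counts in DMSO replicates 1 to 3 and 12, 2 and 4 counts in iBRD9 replicates 1 to 3. It did not pass the filter on low counts, and a difference was not detectable at this depth.

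Taf1, the largest subunit of the general factor TFIID, rose. It was at 93.8 CPM in DMSO replicate 1, at 73.6 and 69.3 CPM in DMSO replicates 2 and 3, and at 112, 107 and 109.9 CPM with iBRD9. As for Brd8, DMSO replicate 1 was the DMSO library nearest to iBRD9, and the groups did not overlap (Taf1, ENSMUSG00000031314: 0.47, SE 0.107, adjusted p = 0.00499). Kmt2a (MLL1), which methylates histone H3 at lysine 4 (K4), was at 93.4, 84.2 and 84.4 CPM with DMSO and at 129, 114 and 117 CPM with iBRD9, again without overlap (0.46, SE 0.071, adjusted p = 0.000765). Ash1l, which methylates H3 at lysine 36 (K36), stood at 223 ± 12.8 and 243 ± 3.93 CPM. It did not pass (0.12, 95% interval -0.013 to 0.26, adjusted p = 0.104), although every iBRD9 library was above every DMSO library, and it was 0.068 without DMSO replicate 1.

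The AAA ATPase genes Atad2 and Atad2b went opposite ways. ATAD2 (ANCCA) is a chromatin protein found at replicating DNA and made mostly in dividing cells. Atad2 (ENSMUSG00000022360) was at 302, 276 and 281 CPM with DMSO and at 385, 415 and 414 CPM with iBRD9, higher in every iBRD9 library (0.50, SE 0.062, adjusted p = 0.000246). Atad2b (ENSMUSG00000052812) was at 31.7, 37.3 and 39.2 CPM with DMSO and at 27.7, 26.6 and 29.1 CPM with iBRD9, lower in every iBRD9 library (-0.38, SE 0.091, adjusted p = 0.00720). Both calls held under all 14 alternatives, library size alone and each left-out library included.

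In the TRIM family 1 gene rose, 2 did not pass and 1 was too low for the test. TRIM24, TRIM28, TRIM33 and TRIM66 are the TIF1 proteins, transcription cofactors with a PHD finger beside the bromodomain. Trim24 was at 95.9, 115 and 125 CPM with DMSO and at 135, 129 and 137 CPM with iBRD9, with DMSO replicate 1 the lowest (0.26, adjusted p = 0.0379). It was 0.15 without DMSO replicate 1, and lost its call without DMSO replicate 2 (adjusted p = 0.0803) or iBRD9 replicate 1 (0.110), 2 (0.0738) or 3 (0.120), where its alternatives spanned 0.00484 to 0.120. Trim28 (KAP1), the corepressor of KRAB zinc finger proteins, stood at 299 ± 15.3 and 315 ± 13.4 CPM (0.074, 95% interval -0.067 to 0.22, adjusted p = 0.322), and at 0.024 without DMSO replicate 1.

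Trim33, a cofactor of the TGF-beta pathway, was at 109 CPM in DMSO replicate 1, at 147 and 152 CPM in DMSO replicates 2 and 3, and at 115, 116 and 118 CPM with iBRD9. DMSO replicate 1 was thus below all iBRD9 libraries and the other DMSO libraries were above them. With all libraries Trim33 did not pass (-0.22, 95% interval -0.49 to 0.041, adjusted p = 0.124). Without DMSO replicate 1 it was -0.37 (adjusted p = 4.34e-08, where its alternatives spanned 4.34e-08 to 0.363), and without DMSO replicate 3 it was -0.14 (adjusted p = 0.324). Trim66 had 9, 21 and 31 counts in DMSO replicates 1 to 3 and 3, 5 and 3 counts in iBRD9 replicates 1 to 3, or 0.391, 0.828 and 1.31 CPM and 0.0974, 0.200 and 0.127 CPM. Every DMSO library was above every iBRD9 library. Trim66 did not pass the filter on low counts. Without a filter its log2 fold change was -2.57 (adjusted p = 0.000391). Without DMSO replicate 1 it passed the filter with -2.90 (adjusted p = 5.30e-06). It was also called lower with the DESeq2 Wald test and when iBRD9 replicate 1, 2 or 3 was left out. The value of Trim66 rests on few reads.

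The ZMYND genes, which read acetylated or methylated histone tails with a PHD finger, a bromodomain and a PWWP domain together, showed small values. Zmynd8 was at 139, 131 and 135 CPM with DMSO and at 127, 118 and 120.4 CPM with iBRD9, without overlap (-0.15, adjusted p = 0.0446). The call was lost without DMSO replicate 2 (adjusted p = 0.0615), DMSO replicate 3 (0.0854), iBRD9 replicate 2 (0.161) or iBRD9 replicate 3 (0.133), and with library size alone (-0.046, adjusted p = 0.526, where its alternatives spanned 0.00911 to 0.526). Zmynd11, a reader of methylated histone H3.3, stood at 254 ± 23.5 and 261 ± 5.63 CPM (0.039, 95% interval -0.13 to 0.21, adjusted p = 0.657), and at -0.040 or 0.091 when DMSO replicate 1 or 3 was left out.

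Of the WD repeat genes, Phip and Brwd1 rose and Brwd3 did not pass. PHIP, BRWD1 and BRWD3 carry WD repeats before their bromodomains, and PHIP is a substrate receptor of the CUL4 ubiquitin ligase. Phip (ENSMUSG00000032253) was at 141, 129.6 and 127 CPM with DMSO and at 195, 202 and 213 CPM with iBRD9, all iBRD9 libraries above all DMSO libraries (0.62, SE 0.063, adjusted p = 9.23e-05). Brwd1 (ENSMUSG00000022914) was at 88.1 CPM in DMSO replicate 1, at 67.2 and 64.6 CPM in DMSO replicates 2 and 3, and at 108, 100.1 and 100.2 CPM with iBRD9. DMSO replicate 1 was once more the DMSO library nearest to iBRD9, without overlap of the groups (0.49, SE 0.113, adjusted p = 0.00594). Brwd3 stood at 39.8 ± 3.23 and 41.5 ± 0.348 CPM (0.064, 95% interval -0.10 to 0.23, adjusted p = 0.472), and at 0.11 or -0.0031 when DMSO replicate 1 or 2 was left out.

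**Figure D2:**
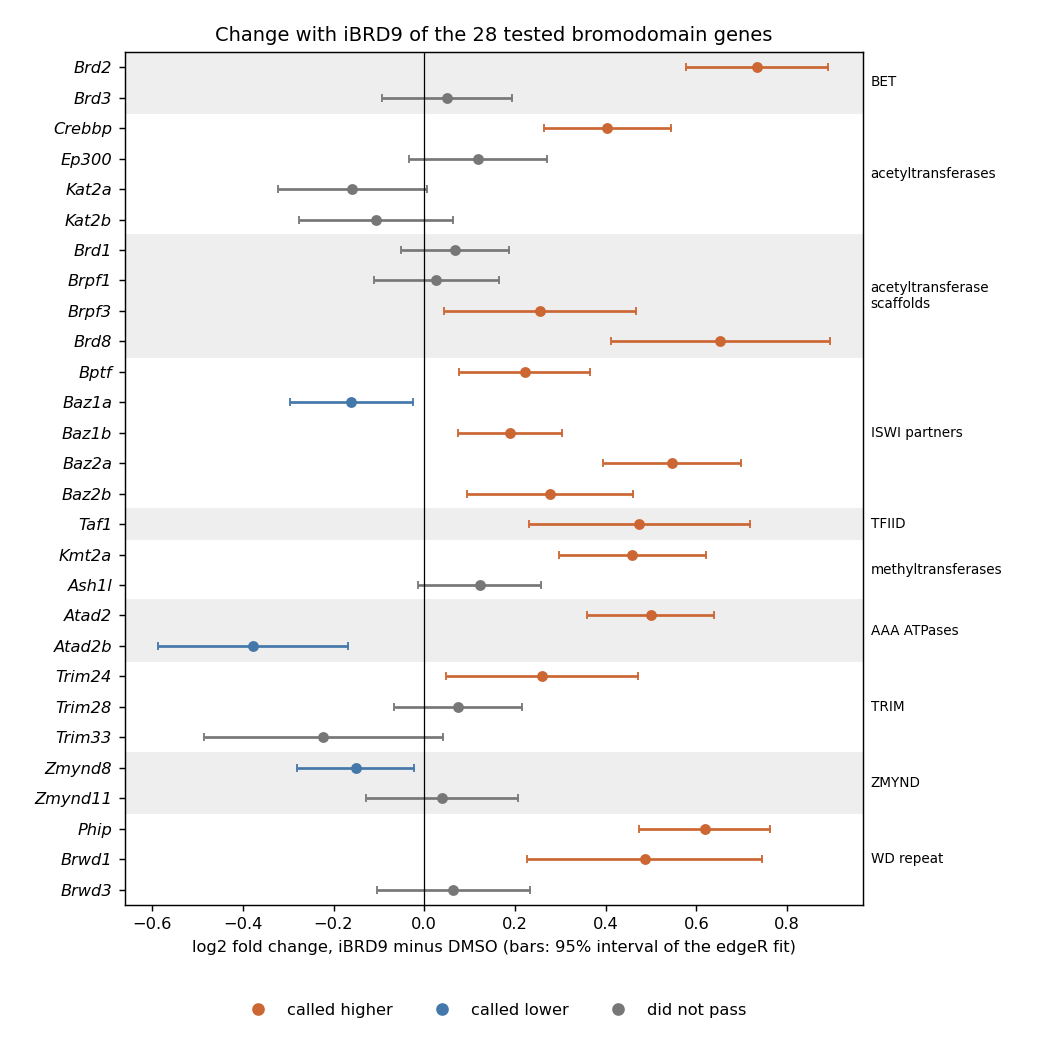
Log2 fold change with iBRD9 for the 28 tested genes, with 95% intervals of the edgeR fit, grouped by protein family and coloured by call. The values run from -0.38 (Atad2b) to 0.73 (Brd2), with 14 called higher and 3 called lower.

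Related genes were also compared by the log2 ratio of their counts within each library, where the scaling cancels, over 8 pairs. The ratios of the groups did not overlap in 7 pairs. In each of these the exact two-sided permutation test gave p = 0.1, the smallest that 3 against 3 libraries allow. Adjusted over the 8 pairs it was 0.114, so none could pass. How often pairs of other genes separate was not counted. Single genes already had separate CPM ranges in 68% of all tested genes, so the 7 pairs cannot be called particular to these genes. The ratio of Atad2 to Atad2b moved the most, from 2.99 ± 0.227 with DMSO to 3.86 ± 0.0897 with iBRD9 (SD, n = 3), a difference of 0.87. Brd2 to Brd3 went from 2.08 ± 0.128 to 2.76 ± 0.124, a difference of 0.68, and Brwd1 to Brwd3 from 0.87 ± 0.175 to 1.30 ± 0.0701 (0.43). Baz1a to Baz1b went from -2.54 ± 0.0376 to -2.89 ± 0.0533 (-0.35), Crebbp to Ep300 from -0.39 ± 0.138 to -0.10 ± 0.0205 (0.28) and Baz2a to Baz2b from 1.25 ± 0.0337 to 1.52 ± 0.0456 (0.27). Brpf1 to Brpf3 went from -0.024 ± 0.153 to -0.26 ± 0.117 (-0.24, and -0.15 without DMSO replicate 1). Kat2a to Kat2b overlapped, at -0.65 ± 0.131 and -0.70 ± 0.0710 (-0.054, exact permutation p = 0.6). That difference ran from -0.13 (DMSO replicate 1 left out) to 0.0020 (DMSO replicate 2 left out).

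**Figure D3:**
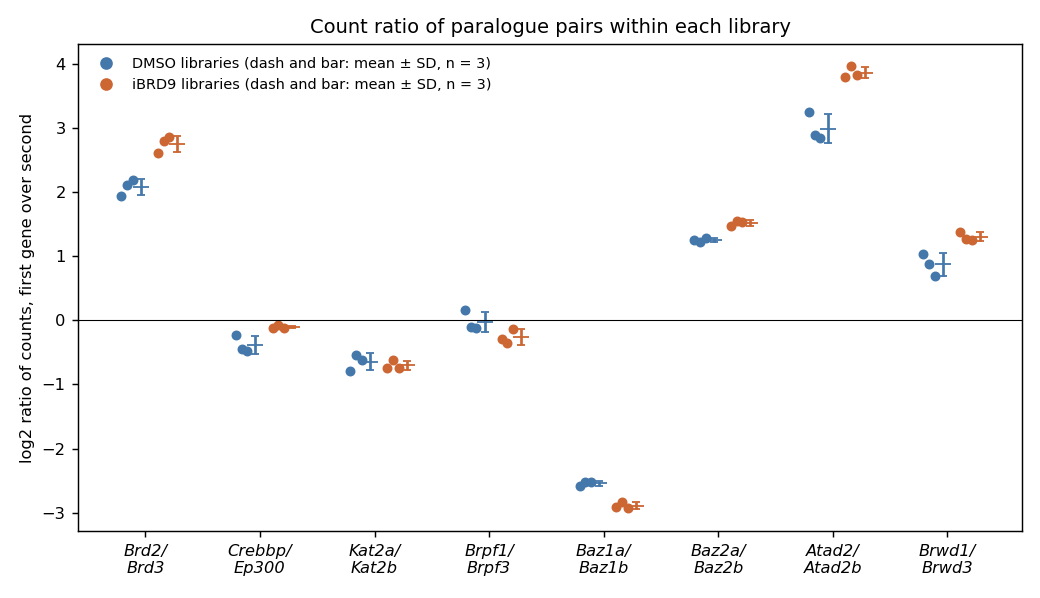
Log2 ratio of the raw counts of 8 pairs of related genes in each library (points), with the mean ± SD of 3 libraries beside them; a ratio of 0 means equal counts, not equal levels, since transcripts differ in length. Atad2/Atad2b goes from 2.99 to 3.86 and Brd2/Brd3 from 2.08 to 2.76, while Kat2a/Kat2b overlaps between the groups.

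Per kilobase of annotated exon (lengths from GENCODE M21), the highest levels with DMSO were those of Trim28 (72.0 ± 3.68 CPM per kb) and Brd2 (52.5 ± 1.55), followed by Baz1b (31.1 ± 0.292) and Zmynd11 (23.2 ± 2.15). With iBRD9 Brd2 came first (87.2 ± 6.39 CPM per kb) and Trim28 second (75.8 ± 3.23), again followed by Baz1b (35.5 ± 0.291), while Atad2 moved from rank 7 to rank 4 (17.9 ± 0.884 to 25.2 ± 1.08 CPM per kb) and Brd8 from rank 17 to rank 7. At the low end were Cecr2, Trim66 and Atad2b in both groups, at 0.0204, 0.0831 and 2.39 CPM per kb with DMSO.

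The genes are long: their median exon length was 10.8 kb, against 4.28 kb over the tested genes with a length, and 22 of the 28 were 7.45 kb or longer, the top class when the tested genes are split by length into 5 classes of equal size. All 14 risen genes were in that class, where 36.6% of all genes were called higher and 30.1% lower, against 23.7% and 27.9% in the class of shortest genes. By abundance, 18 of the 28 lay in the top of 5 such classes, where 25.3% of all genes were higher and 43.2% lower. Among the 28 genes, Pearson's r of the log2 fold change was 0.41 with the log2 exon length and 0.46 with the mean log2 CPM, as a description over genes that share the same 6 libraries. Over all 13519 tested genes with a length, r with the log2 exon length was -0.031. The part of length and abundance in the directions was not tested.

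The other subunits of the complexes went both ways. Their counts are to be read against the 29.8% of all tested genes that were called higher and the 30.9% called lower, and no list was tested against genes in general. In SAGA and ATAC, the home of Kat2a and Kat2b, 5 of 20 tested genes rose and 4 fell (median 0.015), with Yeats2 (72.6 ± 13.03 to 136 ± 4.72 CPM, 0.90) and the large scaffold gene Trrap (0.84) up and Supt3 (25.9 ± 6.69 to 11.6 ± 0.353 CPM, -1.16) and the acetyltransferase gene Kat14 (-0.49) down. Of the genes for KAT6A, KAT6B, KAT7 and listed subunits of their complexes, 4 of 9 rose and 3 fell (median 0.24). Jade2 (0.68) and Meaf6 (0.54) were up, and Jade1 (-0.50) and the acetyltransferase gene Kat7 (-0.41) were down. In NuA4/TIP60, the complex of BRD8, 4 of 16 rose and 4 fell (median -0.12), with Trrap and the ATPase gene Ep400 (223 ± 12.9 to 382 ± 6.86 CPM, 0.78) up and Ruvbl1 (-0.39) and Vps72 (-0.36) down. The count of fallen NuA4/TIP60 genes was 7 when DMSO replicate 1 was left out, and 2 when DMSO replicate 2, iBRD9 replicate 1 or iBRD9 replicate 3 was.

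In the ISWI complexes 1 of 7 tested genes rose and 3 fell (median 0.018), against 3 higher and 0 lower with library size alone. With all libraries Hmgxb4 (0.29) was up and Rsf1 (-0.26) and the histone chaperone gene Rbbp4 (-0.22) were down. Without DMSO replicate 1 the rises numbered 2. No gene was called higher (0) without DMSO replicate 2 or any 1 iBRD9 library, and none lower (0) without any 1 library other than DMSO replicate 1. Hmgxb4 lost its call on leaving out any 1 library other than DMSO replicate 1, with adjusted p from 0.0563 to 0.0849. Of 13 tested TFIID subunits 4 rose and 1 fell, or 2 without DMSO replicate 1 (median 0.10), with Taf4 (26.3 ± 4.07 to 51.1 ± 1.38 CPM, 0.96) and Taf7 (0.81) up, as Taf1 was, and Taf6 (-0.36) down. Of 10 tested genes of the MLL/COMPASS methyltransferases 4 rose and 2 fell (median 0.094). Kmt2c rose from 88.1 ± 2.80 to 179.8 ± 4.67 CPM (1.03) and Kmt2d from 169 ± 49.7 to 292 ± 20.01 CPM (0.79), while the core subunit genes Ash2l (-0.58) and Rbbp5 (-0.33) fell.

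Among partners of TRIM28 in gene silencing, 5 of 6 tested genes rose and 1 fell, where 60.7% of all tested genes were called in either direction (median 0.32), with Morc3 (0.84) and the heterochromatin protein gene Cbx5 (357 ± 54.0 to 607 ± 27.4 CPM, 0.76) up and Atf7ip (92.0 ± 0.850 to 52.6 ± 3.50 CPM, -0.81) down. The rises numbered 3 without DMSO replicate 2 or without iBRD9 replicate 2. Of 13 genes of P-TEFb and other elongation factors, which BET proteins work with, 3 rose and 2 fell (median 0.092). Hexim1, an inhibitor of P-TEFb, rose from 23.8 ± 5.69 to 48.8 ± 0.235 CPM (1.04, SE 0.143, adjusted p = 0.000431) and the cyclin gene Ccnt2 from 119 ± 35.1 to 186 ± 19.9 CPM (0.64), while Aff1 (-0.72) and Hexim2 (-0.44) fell. The rises numbered 1 without iBRD9 replicate 1. Hexim2 lost its call without any 1 library except DMSO replicate 2 (adjusted p from 0.0540 to 0.1001), and Ccnt2 without DMSO replicate 2 (0.0525) or iBRD9 replicate 1 (0.0662). The falls numbered 3 when DMSO replicate 1 was left out, and 1 when DMSO replicate 3 or any 1 iBRD9 library was.

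Of the 5 bromodomain genes of SWI/SNF itself, the ATPase genes Smarca4 (0.36) and Smarca2 (60.8 ± 4.92 to 75.2 ± 4.05 CPM, 0.31) and Pbrm1 (342 ± 11.7 to 420.2 ± 3.70 CPM, 0.30, adjusted p = 0.00158) rose. Brd7 fell (-0.25), and Brd9, the target of the compound, did not pass (0.051, adjusted p = 0.624), and was 0.12 or -0.036 when DMSO replicate 1 or 3 was left out. The difference between these 5 genes and the 28 was not tested.

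**Figure D4:**
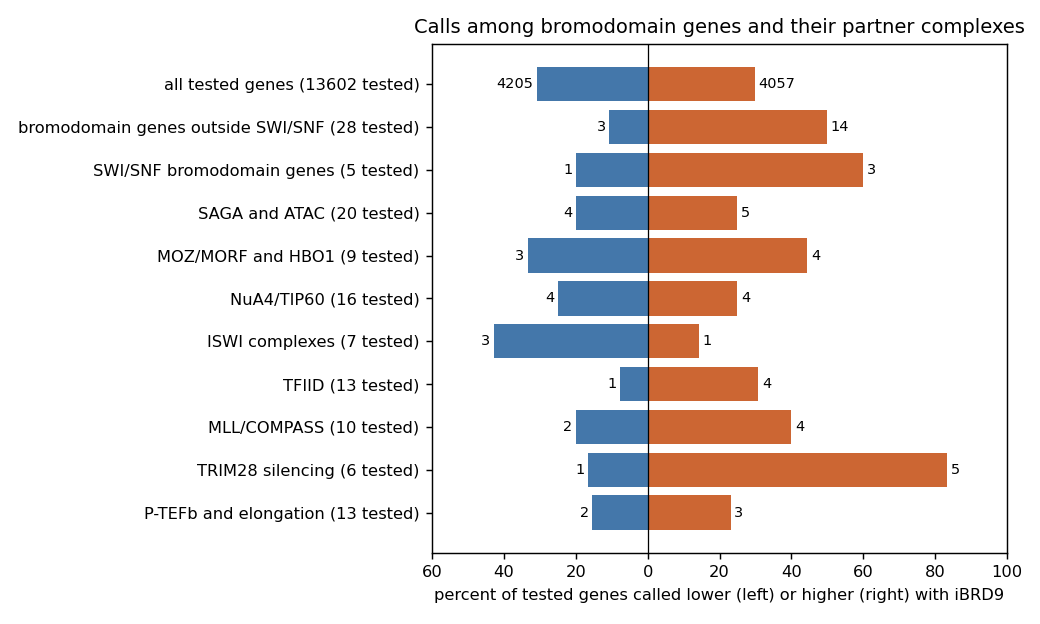
Percent of the tested genes of each list called higher (right, orange) or lower (left, blue) with iBRD9, with the number of genes at the end of each bar. Among the bromodomain genes outside SWI/SNF 14 are higher and 3 lower of 28 tested; among all tested genes 4057 are higher and 4205 lower of 13602.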

How the data were processed

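RNA was measured in 6 libraries, 3 per treatment. Total RNA was extracted, poly(A) RNA was selected and libraries were primed at random, per the labels' protocols. The authors deposited raw counts of reads for each Ensembl gene ID. The submitters' processing notes name CASAVA 1.8.2, Bowtie2 2.4.5 and the build GRCm39. How reads were counted, with which annotation and strand setting, is not given in the sources used here. No source says that strand was kept, so overlapping genes may share reads. Symbols, exon lengths (GENCODE M21) and promoters come from the older build GRCm38.

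Genes were kept by filterByExpr in edgeR 4.0.16 (R 4.3.3; minimum count 10), scaled by TMM, and tested by quasi-likelihood in edgeR (robust fit, treatment as the sole term, two-sided), with Benjamini-Hochberg adjustment over 13602 genes. Values are mean ± SD of TMM-scaled CPM. The standard error is the log2 fold change divided by the square root of F.

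The paralogue ratios used a pseudocount of 0.5 and an exact permutation test. All 30 members are named. Each partner list gives up to 2 higher and 2 lower called genes of largest change, among genes whose mean log2 CPM is 1 or more. Hexim1, the 5 SWI/SNF genes and the ISWI motor genes Smarca5 and Smarca1 are given in addition. Trrap and Wdr5 are in 2 lists. The members and lists were chosen with earlier results of these data known. The promoter search, the exon lengths and the classes by length and abundance were added after values were seen. The alternatives were DESeq2 size factors, library size alone, the DESeq2 1.42.0 Wald test, limma-voom (limma 3.58.1), no filter, a filter of 1 CPM in 3 or more libraries, a replicate block, an adjusted p under 0.01, a ratio pseudocount of 5, and leaving out each library.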

Additional observations from a re-analysis of the deposited data

How the results depend on the processing

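Of the 17 called bromodomain genes, 10 kept their call under all 14 alternatives (Brd2, Crebbp, Brd8, Baz2a, Taf1, Kmt2a, Atad2, Atad2b, Phip and Brwd1), and 7 lost it under at least 1. Of the 11 that did not pass, 6 passed under at least 1. How many of all tested genes kept, lost or gained a call was not counted, so these numbers are not particular to the bromodomain genes. Of all tested genes 60.7% were called in the main fit and 44.6% at an adjusted p under 0.01. No call of a named gene changed sign under the alternatives run (0). With library size alone the median of the bromodomain genes was 0.26, 1 bromodomain gene was called lower, and the calls were 3 higher and 0 lower in the ISWI complexes, 7 higher in TFIID, 7 higher and 1 lower in P-TEFb, 2 lower in NuA4/TIP60 and 0 lower among the SWI/SNF genes. Under that scaling 4999 of all tested genes were higher and 3385 lower. Ep300 (0.23, adjusted p = 0.0111), Brd1 (0.17, 0.0135), Ash1l (0.23, 0.00452) and Trim28 (0.18, 0.0183) then passed, and Brd7 (-0.15, 0.0506) did not. At an adjusted p under 0.01, 9 bromodomain genes were higher and 1 lower, with 0 higher and 0 lower in the ISWI complexes, 2 lower in NuA4/TIP60, 3 higher among the TRIM28 partners, and 1 higher and 1 lower in P-TEFb. With at least 1 CPM in 3 libraries, 1 bromodomain gene was lower and 2 genes of the ISWI complexes were higher, and Ash1l passed (0.14, adjusted p = 0.0498). That filter left 12247 genes, of which 63.6% were called, 3876 higher and 3918 lower. Without a filter Kmt2d (0.78, adjusted p = 0.0637) and Ccnt2 (0.64, 0.123) did not pass. With the DESeq2 Wald test Brpf3 (0.24, adjusted p = 0.0619) and Trim24 (0.24, 0.0567) did not. Without any 1 library, 10 to 14 bromodomain genes were higher and 1 to 6 lower. Over these fits 49.4% to 74% of all tested genes were called. In the partner lists 2 to 7 NuA4/TIP60 genes were then lower, and 0 to 2 genes of the ISWI complexes higher and 0 to 3 lower. In TFIID 1 to 2 genes were lower, and 3 to 5 TRIM28 partners were higher. Of the P-TEFb genes 1 to 3 were higher and 1 to 3 lower. The difference of the Brd2/Brd3 ratio then ran from 0.61 to 0.75 and that of Atad2/Atad2b from 0.79 to 1.00. The cause of these shifts was not tested.

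The replicate numbers do not state whether same-numbered libraries shared a day or batch. Deviations from the group means correlated at 0.12, 0.060 and 0.025 for same-numbered libraries. For the other pairings these correlations ran from -0.0996 to 0.047. Such values from 3 libraries per group cannot decide whether the libraries were paired. With the replicate number as a block, 13 bromodomain genes were higher and 1 lower, with Brpf3, Baz1a and Zmynd8 not passing, and 2 NuA4/TIP60 genes were lower; 3920 genes were higher and 4017 lower in all. At this depth Cecr2 and Trim66 were limited by their counts.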
